A study of Homo sapiens with 6 samples.

Results

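The apolipoprotein L genes are a family of 6 human genes on chromosome 22, of which 5 are described here: APOL1, APOL2, APOL3, APOL4 and APOL6. The members were picked out by gene symbol, as 5 of the 37887 symbols listed in the count table, and the family was taken up with earlier results of these data known. RNA-seq was performed on BT-549 cells, an established human triple-negative breast cancer line, with 3 control and 3 IRF1shRNA samples. IRF1 drives transcription of many interferon (IFN) target genes, and it was silenced with a short hairpin RNA. Going by the series text, every sample came from 1 stable line with a tetracycline-inducible IRF1 hairpin, with 0.1% DMSO as vehicle in the controls and 500 ng/ml doxycycline in the IRF1shRNA group. The titles instead speak of a hairpin control, and the labels do not resolve this. Duration of treatment is not given in the sources used here. The effects of doxycycline and of the hairpin it induces cannot be told apart, because both fell on the same 3 samples. Vehicle is recorded for the controls alone, so its effect cannot be told apart from theirs either. Should the titles hold, the controls would be a separately made line, and a difference between lines could not be told apart from silencing either. All p-values below measure the spread between cultures of BT-549 cells alone.

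Apolipoprotein L proteins share an amphipathic region that can insert into membranes. APOL1 carries a signal peptide, circulates on high-density lipoprotein and lyses African trypanosomes, whereas the other members act inside cells. APOL3 disrupts the membranes of bacteria in the cytosol and takes part in phosphoinositide signaling at the Golgi, APOL6 has been linked to programmed cell death, and the roles of APOL2 and APOL4 are less well defined. Several members are known as IFN-stimulated genes (ISG), and the family has evolved rapidly in primates. In GENCODE release 29 (GRCh38) APOL1 lies at chr22:36253010-36267530 on the plus strand. On the minus strand beside it lie APOL2 (chr22:36226203-36239954), APOL4 (chr22:36189124-36204840) and APOL3 (chr22:36140330-36166177), while APOL6 (chr22:35648395-35668409, plus strand) is 472 kb away from APOL3. There were 0 other annotated genes overlapping any of the 5 members. Of the words of 50 bases in their annotated transcripts, 0.14% to 3.94% per member were shared with another gene, at most 0.608% were shared with another member, and 0% of words of 100 bases were shared with any gene. Read length is not given in the sources used here.

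Total counts per sample were between 55143808 and 160436234, and IRF1shRNA replicate 2 was the library with the lowest depth. Levels are given as CPM, counts relative to the TMM-scaled library size, and per-sample values follow the order of replicates 1 to 3. IRF1 itself measured 45.3, 48.1 and 51.5 CPM without and 13.8, 14.9 and 14.6 CPM with silencing. Mesenchymal markers of the line were abundant, although the 4 listed summed to between 1940 and 2050 CPM in control and between 1510 and 1620 CPM in IRF1shRNA samples, and 3 of them passed the test (VIM with a log2 fold change of −0.56, a size near that of APOL2 below). ESR1, the estrogen receptor gene, measured 0.0163 ± 0.0162 CPM without and 0.101 ± 0.0377 CPM with silencing (SD over 3 samples). The 5 luminal epithelial markers summed to between 8.43 and 8.93 CPM in control and between 3.95 and 4.46 CPM in IRF1shRNA samples, and 2 of them passed the test. Transcripts of other cell types were scarce. The 4 endothelial markers summed to between 0.0671 and 0.286 CPM in control and between 0.144 and 0.213 CPM in IRF1shRNA samples. CDH5 had 0, 4 and 0 counts in control libraries and 0 in each IRF1shRNA library. In the mean, VWF went from 0.102 to 0.0394 CPM, PECAM1 from 0.0316 to 0.110 CPM and KDR from 0.0163 to 0.0360 CPM. The 5 leukocyte markers summed to between 1.57 and 1.84 CPM in control and between 2.50 and 3.22 CPM in IRF1shRNA samples. CD3E had 0 counts in the controls. CD14, the 1 marker of these 5 that passed the test, rose from 1.09 ± 0.135 CPM to 2.22 ± 0.189 CPM. The part of these marker levels in the results below was not tested. In bulk RNA, fewer cells with a transcript and less of it per cell cannot be told apart.

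To determine how the APOL genes respond to IRF1 silencing, all genes were compared between the groups with edgeR's quasi-likelihood test. Of the 5 members, 4 passed the filter on low counts, and each of these 4 fell, with adjusted p-values under the threshold of 0.05. Among all 18851 genes tested, 50.5% passed this threshold, 26.4% as lower and 24.1% as higher. Past a 2-fold change as well, APOL1, APOL3 and APOL6 fell, where 4.43% of all genes tested fell and 3.43% rose to that extent. None of the 4 had overlapping CPM values between the groups, and 29.5% of all genes tested were lower without overlap. The median log2 fold change of the 4 was −1.95, beside −0.0024 for all genes tested. The remaining member, APOL4, was too scarce to be tested.

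Of the members tested, APOL1, the secreted trypanosome lytic factor, changed most. Control libraries held 598, 744 and 1006 counts of it, and IRF1shRNA libraries 43, 16 and 34. After scaling, 4.85, 6.07 and 6.75 CPM in the former compared with 0.341, 0.288 and 0.207 CPM in the latter. Every IRF1shRNA sample was thus far below every control sample. APOL1 fell to 4.73% of its control mean, that is, to 0.279 ± 0.0679 CPM from 5.89 ± 0.960 CPM (mean ± SD of 3 samples). On the log2 scale the change was −4.44 ± 0.18 (SE, 95% interval −4.82 to −4.06), and edgeR's Benjamini-Hochberg adjusted p was 2.30e-12. Only 14 of the 18851 genes tested had a lower log2 fold change.

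APOL6, the member with the highest counts in control samples, measured 152.0, 169.7 and 167.9 CPM without silencing and 40.3, 45.0 and 43.9 CPM with it. The groups were far apart. APOL6 fell to 26.4% of its control mean, that is, to 43.0 ± 2.44 CPM from 163 ± 9.73 CPM (mean ± SD of 3 samples). On the log2 scale the change was −1.92 ± 0.05 (SE, 95% interval −2.04 to −1.81), and its edgeR adjusted p of 2.20e-14 ranked 27 of 18851. By log2 fold change it stood further back, with 179 genes below it.

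APOL3, which acts on bacterial membranes, was a scarce transcript in these cells. Control samples had 2.55, 2.38 and 2.13 CPM, while 0.587, 0.504 and 0.650 CPM were left after silencing. The latter values rest on 74, 28 and 107 counts. APOL3 fell to 24.7% of its control mean, that is, to 0.581 ± 0.0731 CPM from 2.35 ± 0.213 CPM (mean ± SD of 3 samples), a log2 fold change of −1.98 ± 0.16 (SE, 95% interval −2.31 to −1.65) and an adjusted p of 1.10e-08 (edgeR). There were 164 genes with a lower log2 fold change.

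APOL2 changed least among the members tested. The control values were 58.5, 65.8 and 67.2 CPM, and the IRF1shRNA values 46.0, 45.1 and 45.0 CPM. The lowest control sample was still above the highest IRF1shRNA sample. APOL2 fell to 71.1% of its control mean, that is, to 45.4 ± 0.504 CPM from 63.9 ± 4.69 CPM (mean ± SD of 3 samples). On the log2 scale the change was −0.49 ± 0.05 (SE, 95% interval −0.60 to −0.39), at an edgeR adjusted p of 3.18e-07. There were 2865 genes with a lower log2 fold change, and in a test against a 2-fold change (glmTreat) the adjusted p of APOL2 was 1.

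APOL4 had 8, 0 and 2 counts in the control libraries and 2, 2 and 4 in the IRF1shRNA libraries. Those counts amount to at most 0.0649 CPM in any sample, where 3 counts, taken as the limit of detection, correspond to 0.0182 CPM in the deepest and 0.054 CPM in the shallowest library. The groups overlapped, and no difference was detectable at this depth. Without molecular identifiers such a limit reflects counting error alone, and low counts were mostly even, so that the limit would be higher if both mates of a read pair were counted. The sixth gene of the family, APOL5, was counted at 3, 2 and 0 in control samples and at 0 in each IRF1shRNA sample, and was not tested either.

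**Figure D1:**
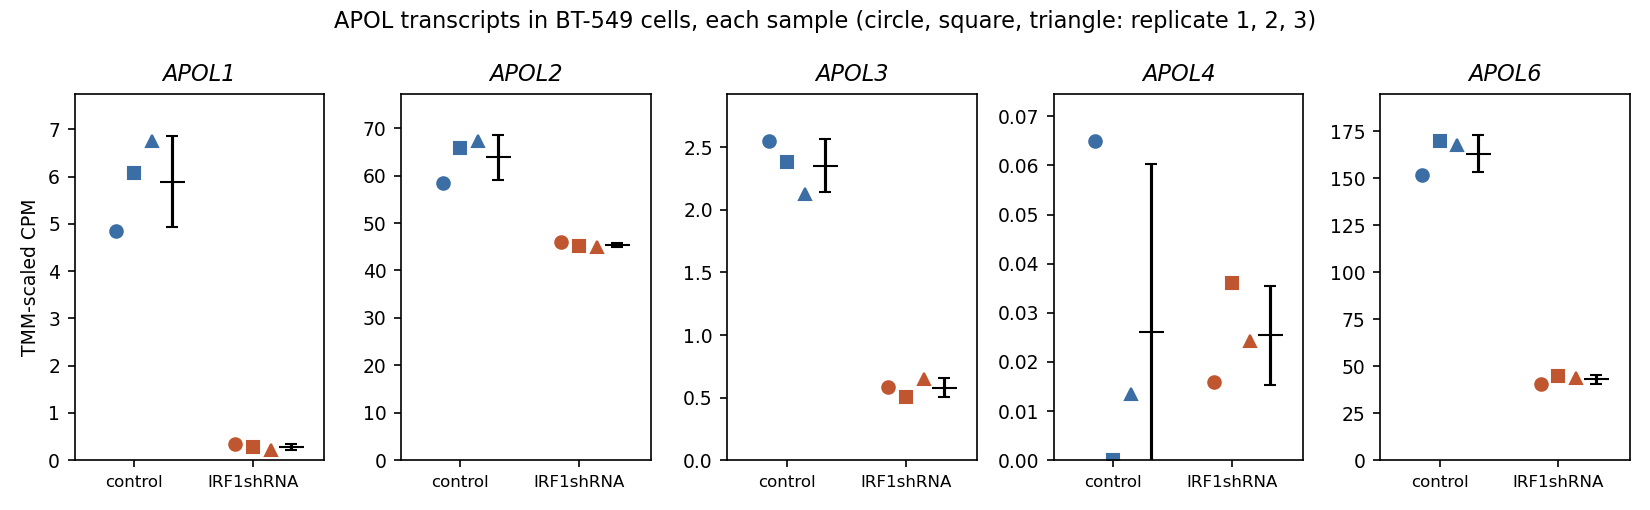
Expression of the 5 APOL genes in each sample, with TMM-scaled CPM on the vertical axis (linear, from 0, with a scale of its own for each gene) and the group on the horizontal axis. Symbols stand for replicates 1 to 3, and the black bar gives the mean ± SD (n = 3). The groups are apart for APOL1, APOL2, APOL3 and APOL6, while APOL4 overlaps between the groups at 0.0649 CPM or less (the lower end of its control bar is cut at 0).

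Whether members differed from one another in their response was examined from the log2 ratio of their counts within each sample, which needs no scaling between libraries. For the 4 members tested there are 6 pairs, and 3 against 3 samples allow no exact two-sided permutation p below 0.1. The log2 ratio of APOL1 to APOL2 was −3.59, −3.44 and −3.32 without and −7.06, −7.25 and −7.75 with silencing, a difference of −3.90 ± 0.22 (SE). For APOL1 to APOL6 the difference was −2.47 ± 0.26, and for APOL1 to APOL3 it was −2.38 ± 0.36. APOL1 thus lay lower against each of the other members in IRF1shRNA samples than in any control sample, with an exact permutation p of 0.1, the smallest possible, and 0.12 after adjustment over the 6 pairs.

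APOL2 lay on the other side. Its log2 ratio to APOL6 was −1.38, −1.37 and −1.32 without and 0.19, 0.0052 and 0.038 with silencing, a difference of 1.43 ± 0.06 (SE). The ratio of APOL2 to APOL3 differed by 1.52 ± 0.17. Both ratios were without overlap, at the same exact permutation p of 0.1 (adjusted 0.12). In control samples APOL6 therefore held more counts than APOL2, whereas in each of the 3 IRF1shRNA samples APOL2 held slightly more. APOL3 and APOL6 were the pair that did not separate. Their ratio differed by −0.088 ± 0.17 (95% interval −0.56 to 0.39, exact permutation p = 0.7, adjusted 0.7), and its values overlapped between the groups.

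Levels were next compared between genes per kb of annotated exon (union of the GENCODE basic transcripts, 2.899 kb for APOL2, 3.116 kb for APOL1, 3.863 kb for APOL3, 3.958 kb for APOL4 and 10.121 kb for APOL6). On this scale APOL2 was the highest member in control samples, at 22.02 ± 1.62 CPM per kb (SD, n = 3), and was followed by APOL6 at 16.1 ± 0.963, APOL1 at 1.89 ± 0.308, APOL3 at 0.609 ± 0.0551 and APOL4 at 0.0066 ± 0.0087. No neighbours in this order had overlapping ranges. In IRF1shRNA samples the order was APOL2 at 15.7 ± 0.174 CPM per kb, APOL6 at 4.25 ± 0.241, APOL3 at 0.1503 ± 0.0189, APOL1 at 0.0895 ± 0.0218 and APOL4 at 0.0064 ± 0.0026. APOL1 and APOL3 had exchanged places, with APOL3 1.39 to 2.54 times higher than APOL1 in the 3 IRF1shRNA samples. With the exons of all annotated transcripts the same order held in each group, but the ranges of APOL3 and APOL1 in IRF1shRNA samples then overlapped.

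The composition of the family differed accordingly. In control samples APOL2 made up 54.2 ± 0.356% of the summed level per kb of the 5 members, APOL6 39.7 ± 0.575%, APOL1 4.63 ± 0.467% and APOL3 1.51 ± 0.236%. In IRF1shRNA samples APOL2 made up 77.7 ± 1.05%, APOL6 21.1 ± 1.14%, APOL3 0.746 ± 0.0960% and APOL1 0.444 ± 0.108% (SD, n = 3 each). The sum itself was 40.6 ± 2.80 CPM per kb in control and 20.1 ± 0.0743 CPM per kb in IRF1shRNA samples, or 49.6% of control. With the exons of all annotated transcripts APOL2 made up 50.2 ± 0.351% in control and 74.6 ± 1.18% in IRF1shRNA samples. These shares depend on which transcripts the cells use, which counts per gene do not show.

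**Figure D2:**
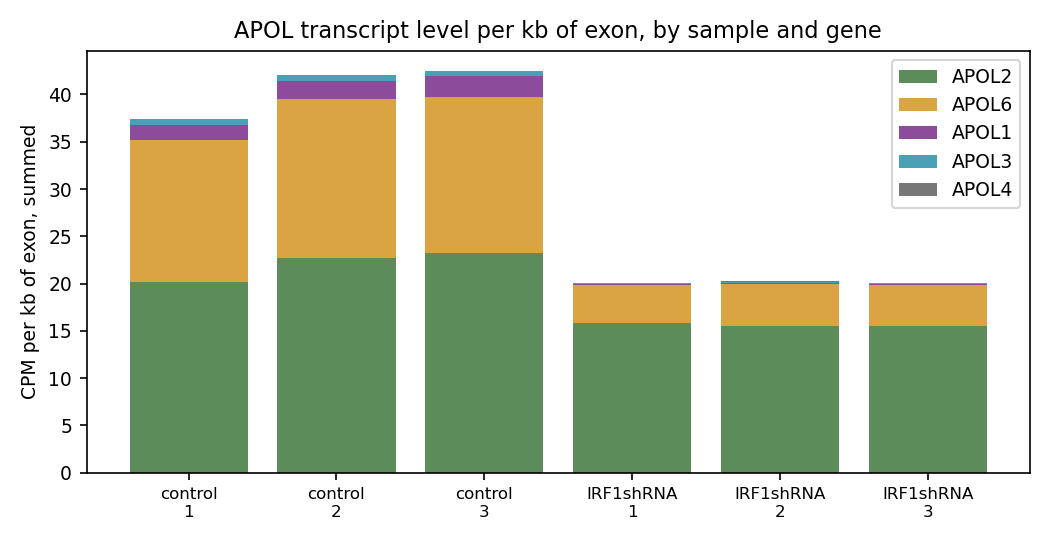
Level of each APOL gene in CPM per kb of exon (vertical axis), stacked for each of the 6 samples (horizontal axis, group and replicate). The summed height is between 37.4 and 42.5 in control and between 20.1 and 20.2 in IRF1shRNA samples, and the APOL6 section shrinks most in absolute terms while APOL2 remains the tallest section in each sample.

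Genes around the family were examined from a list of 17 neighbours on chromosome 22. Of these, 11 passed the filter, 4 fell and 5 rose with an adjusted p under 0.05 (26.4% and 24.1% of all genes tested), and their median log2 fold change was 0.0135. Nearest to a member was MB, the myoglobin gene, 10.4 kb from APOL6, which fell from 0.745 ± 0.141 CPM to 0.315 ± 0.0434 CPM (log2 fold change −1.22 ± 0.25, SE). MYH9, the heavy chain of a non-muscle myosin, lies 13.7 kb beyond the end of APOL1 and had a log2 fold change of −0.08 ± 0.05 (SE, 95% interval −0.18 to 0.015, adjusted p = 0.156 by edgeR). Values of 1740, 1877 and 1853 CPM without and of 1711, 1720 and 1743 CPM with silencing overlapped. RBFOX2, a splicing regulator that lies between APOL6 and APOL3, fell slightly (−0.25 ± 0.05, adjusted p = 2.52e-04). The log2 fold changes of MYH9 and RBFOX2 were nearer to 0 than that of APOL2, and that of MB was not.

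The other neighbours went both ways. RASD2, a small GTPase gene, fell by 1.69 ± 0.30 on the log2 scale, from under 1 CPM. MCM5, a subunit of the replicative helicase, fell by 0.64 ± 0.05. HMOX1, which encodes the heme-degrading enzyme heme oxygenase, rose from 70.8 ± 5.49 CPM to 137 ± 5.003 CPM (log2 fold change 0.95 ± 0.05), and TXN2, a mitochondrial thioredoxin, rose by 0.36 ± 0.05. TOM1, FOXRED2 and EIF3D rose by 0.17, 0.12 and 0.12, with adjusted p-values between 0.0321 and 0.0372 by edgeR. The number of neighbours that rose was 2 without control replicate 1 or control replicate 2, and 3 without any single IRF1shRNA replicate.

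**Figure D3:**
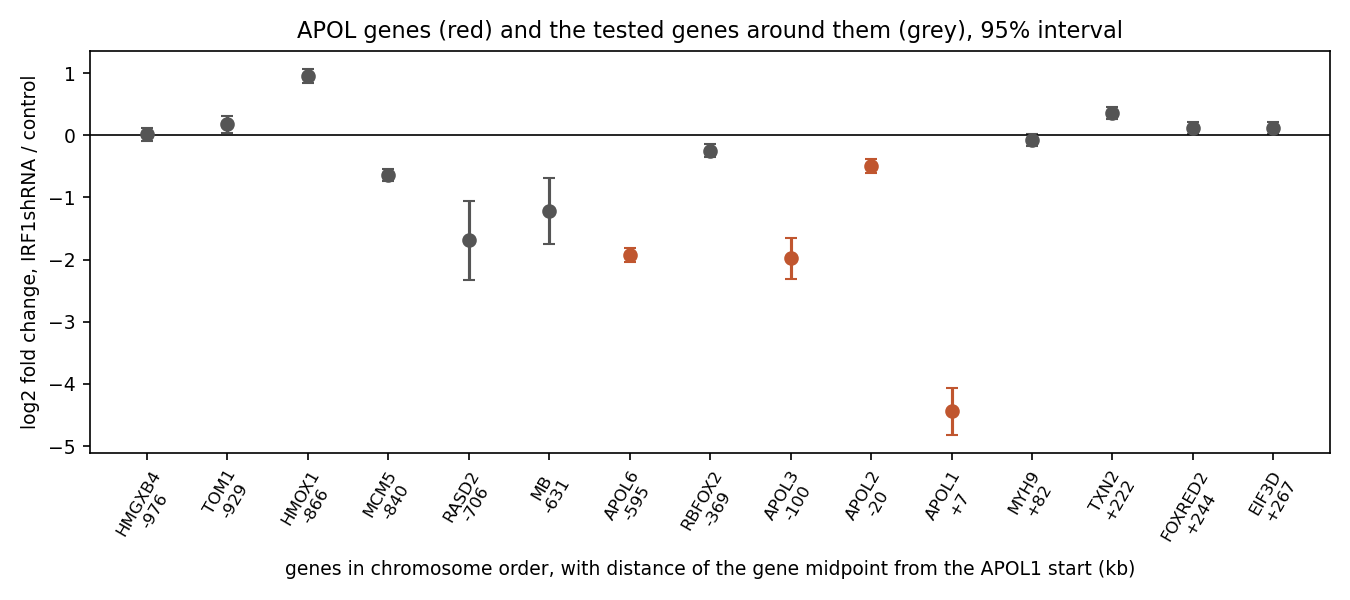
Log2 fold change of the 4 APOL genes tested (red) and of the 11 tested neighbours (grey) on the vertical axis, with 95% intervals from edgeR, in chromosome order on the horizontal axis (spacing not to scale, distance of the gene's midpoint from the APOL1 start given in kb below each name). APOL1 is the lowest point at −4.44, and MYH9 next to it lies at −0.08.

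The APOL genes were then set beside the regulators of the IFN response, through which ISGs are induced. STAT2 and IRF9 act together downstream of type I IFN. STAT2 fell from 64.1 ± 4.84 CPM to 31.9 ± 1.58 CPM (log2 fold change −1.01 ± 0.06, SE) and IRF9 fell from 4.69 ± 0.112 CPM to 1.71 ± 0.305 CPM (−1.43 ± 0.12). IRF7, an IFN-inducible IRF, fell by 1.45 ± 0.10 and NLRC5, an activator of MHC class I genes, by 1.21 ± 0.07 on the log2 scale. IRF2, which binds the same DNA element as IRF1, fell by 0.29 ± 0.06. Of the 18 genes of this list, 10 fell and 4 rose in the edgeR test, against 26.4% and 24.1% of all genes tested, with a median log2 fold change of −0.22, and IRF1 itself belongs to the 10. IRF1 had the lowest value of this list at −1.74, which lies within the 95% interval of APOL3, and differences between these genes and the APOL genes were not tested.

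The receptors of the 2 IFN types did not move in the same way. IFNGR2, a chain of the receptor for IFN gamma, fell by 0.45 ± 0.07 on the log2 scale, whereas the other chain, IFNGR1, rose by 0.21 ± 0.04. IFNAR1 and IFNAR2, the chains of the receptor for type I IFN, had log2 fold changes of 0.06 ± 0.04 and 0.10 ± 0.13 and did not pass the test. Of the kinases and factors that remained, JAK1 (0.15 ± 0.05), STAT3 (0.13 ± 0.04) and NFKB1 (0.17 ± 0.04) rose, IRF3 (−0.22 ± 0.05) and RELA (−0.21 ± 0.04) fell, and JAK2 (−0.006 ± 0.05) and TYK2 (0.06 ± 0.05) did not pass.

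Among 43 ISGs, all of which were tested, 43 fell and 0 rose, against 26.4% and 24.1% of all genes tested, with a median log2 fold change of −3.28. This list was drawn up with earlier results of these data known, so its direction is not independent evidence. The count of 0 higher genes also held with DESeq2, and since each of the 43 fell, none was higher at an unadjusted p under 0.05. The list ran from IFI27 (−6.28 ± 0.13), OAS1 (−5.77 ± 0.14) and OAS2 (−5.68 ± 0.13) to MX2 (−0.66 ± 0.07), GBP2 (−0.53 ± 0.10) and ISG20 (−0.46 ± 0.11). Within this range APOL1 was near the upper end of the decreases, with 9 of the 43 genes below it. APOL3 and APOL6 each had 36 of the 43 below them, and APOL2 had 42, so that its decrease exceeded that of ISG20 alone.

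**Figure D4:**
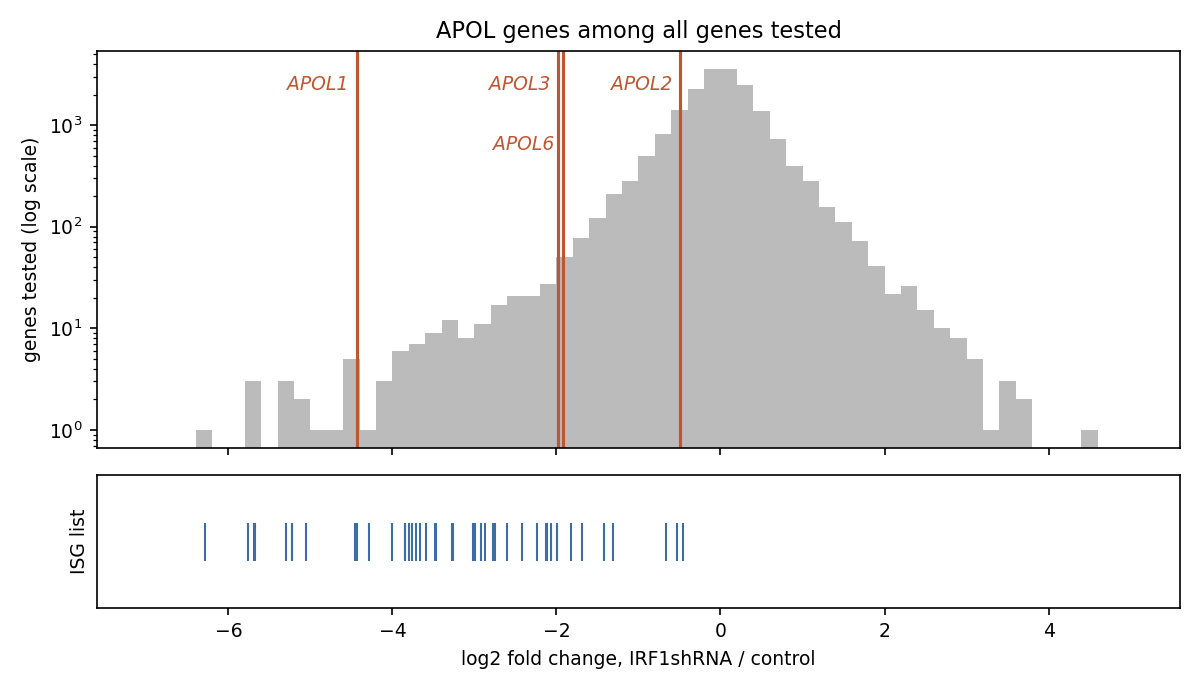
Upper panel: number of genes (vertical axis, log scale) by log2 fold change (horizontal axis) for all 18851 genes tested, with the 4 APOL genes as red lines. Lower panel: the 43 ISGs on the same axis, each as a tick; APOL1 lies among the strongly decreased ISGs, APOL3 and APOL6 above most of the list, and APOL2 at its weak end.

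Genes whose expression followed a pattern most like that of each member were named by the root mean square difference of centred log2 CPM over the 6 samples, among 13065 other genes whose mean reached 1 CPM. For APOL1 these were SAMD9L and IFI6, both ISGs, and FYB1, an adaptor protein gene, at differences of 0.278, 0.293 and 0.301 log2 units. For APOL6 they were PARP12 and PLSCR1, both IFN-inducible, and TGFBI, a matrix protein gene, at 0.0354, 0.0435 and 0.0479. TGFBI fell from 381 to 99.8 CPM and PLSCR1 from 93.6 to 23.8 CPM in the mean. For APOL3 they were IL15RA, a chain of the receptor for interleukin 15, LHX9, a homeobox factor gene, and TMSB15A, a thymosin gene, at 0.0936, 0.0938 and 0.108. For APOL2 they were FN3K, a fructosamine kinase gene, BDKRB1, a bradykinin receptor gene, and SLCO4A1-AS1, at 0.0291, 0.0309 and 0.0335, and the last is an antisense gene whose counts are uncertain because the use of strand in counting is not given in the sources used here. No gene was named for more than 1 member. Group means were left in this measure, so it favours genes with a log2 fold change near that of the member. Shared regulation was not tested.

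Proteins known to bind APOL proteins were listed as a further 7 genes, of which 5 were tested, 2 fell and 1 rose (26.4% and 24.1% of all genes tested), with a median log2 fold change of −0.17. NCS1, a calcium sensor that binds APOL3 and stimulates the kinase PI4KB, fell to 61.9 ± 0.256 CPM from 193 ± 2.18 CPM (mean ± SD of 3 samples), a log2 fold change of −1.64 ± 0.04 (SE) and an adjusted p of 5.20e-15 by edgeR. The individual values were 191, 195 and 194 CPM without and 61.8, 62.2 and 61.7 CPM with silencing, so that the groups were apart. PI4KB, which makes phosphatidylinositol 4-phosphate at the Golgi, rose from 138 ± 3.77 CPM to 182 ± 2.92 CPM (0.39 ± 0.04). PHB2, a mitochondrial prohibitin, fell by 0.20 ± 0.05, and MYH9 (above) and VAMP8, at 0.112 and 0.0997 CPM, did not pass. CALN1 and UBD were too scarce to be tested.

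APOLD1, which shares a domain with the APOL proteins but is encoded on chromosome 12, went the other way. Values of 29.8, 31.5 and 31.9 CPM in the controls stood against 56.3, 58.8 and 59.7 CPM after silencing. APOLD1 rose to 58.2 ± 1.73 CPM from 31.1 ± 1.13 CPM (mean ± SD of 3 samples), a log2 fold change of 0.91 ± 0.05 (SE) and an adjusted p of 7.75e-11 by edgeR. The groups did not overlap, and the direction was opposite to that of the 4 APOL genes tested.

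Genes of other apolipoproteins and of the lipoprotein particles that carry them, unrelated to APOL in sequence, formed a list of 22, of which 12 were tested, 4 fell and 3 rose, with a median log2 fold change of −0.22. These shares are near the 26.4% and 24.1% of all genes tested. APOE, the apolipoprotein of remnant particles, fell from 6.08 ± 1.26 CPM to 1.04 ± 0.112 CPM (−2.55 ± 0.15) and APOC1 fell from 0.534 to 0.233 CPM (−1.26 ± 0.31). CLU, an extracellular chaperone, fell by 0.64 ± 0.05. APOO and APOOL, which sit in the mitochondrial inner membrane, rose by 0.34 ± 0.05 and 0.60 ± 0.06. HPR, which accompanies APOL1 in the trypanosome lytic particle, rose from 0.0861 to 0.179 CPM in the mean, with an adjusted p of 0.0431 by edgeR, and APOA1, also part of that particle, was at 0.0717 and 0.103 CPM and was not tested. HPR had between 6 and 42 counts per library, and the number of genes of this list that rose was 2 with DESeq2, no filter, the CPM filter, halved counts or the replicate block, and without any one sample other than IRF1shRNA replicate 2.

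Members of the BCL2 family were listed because APOL6 and APOL1 have been described as sharing a short motif with them. Of 15 genes 14 were tested, 9 fell and 2 rose, against 26.4% and 24.1% of all genes tested, with a median log2 fold change of −0.29. PMAIP1 (NOXA), a pro-apoptotic member, fell from 18.2 ± 0.401 CPM to 7.26 ± 0.155 CPM (−1.32 ± 0.07) and BMF fell from 1.94 ± 0.234 CPM to 0.713 ± 0.0636 CPM (−1.44 ± 0.16), both past a 2-fold change. BCL2L11 (−0.56), BCL2 (−0.53), BID (−0.43), BAX (−0.35), BCL2L2 (−0.33), MCL1 (−0.26) and BAK1 (−0.22) fell by less. BBC3 (PUMA) and HRK rose by 0.49 ± 0.10 and 0.82 ± 0.26. The 2 sides of the family, pro-apoptotic and anti-apoptotic, were both among the genes that fell, and without control replicate 3 or IRF1shRNA replicate 3 the number that rose was 1.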

How the data were processed

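Per the labels, RNA was extracted with Trizol and libraries were made with TruSeq Stranded mRNA kits. The deposited table holds unnormalized counts by gene symbol. The submitters' processing notes name CASAVA 1.8.2, STAR 2.7.9a, featureCounts, DESeq2 1.24.0 and GRCh38.p7. Annotation and strand setting are not given in the sources used here. The 6 columns were matched to samples by title. The members and lists were chosen with earlier results of these data known.

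Counts were tested with edgeR 4.0.16 (R 4.3.3): TMM scaling, filterByExpr with a minimum count of 10, the quasi-likelihood test with group as factor, and Benjamini-Hochberg adjustment over 18851 genes. SE is the log2 fold change over the square root of F. Between 72.1% and 75.2% of counts from 2 to 11 were even, as when both mates of a pair are counted, so halved counts were an alternative. The others were DESeq2 1.42.0, other scalings and filters, glmTreat, a replicate block, and leaving out each sample. Scripts were tested on simulated data. Pair ratios used a prior of 0.5 count. Replicates differed by more than sampling noise (chi-square per degree of freedom 6.13 to 15.1, halved counts).

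Genes named were the members, IRF1, the genes of the lists, the 3 lowest and 3 highest ISGs, and the 3 genes most like each member. A few genes counted in the lists are not reported here by name.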

Additional observations from a re-analysis of the deposited data

How the results depend on the processing

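APOL1, APOL3 and APOL6 kept their direction and an adjusted p under 0.05 in each of 15 alternatives, with log2 fold changes from −4.68 to −4.19, −2.08 to −1.91 and −1.98 to −1.87. APOL2 ranged from −0.55 to −0.44, and its call was lost only in the test against a 2-fold change (−0.49, adjusted p of 1 by glmTreat), whose construction asks for more. Without single replicates, the ranges were −4.68 to −4.19 for APOL1, −2.08 to −1.91 for APOL3, −1.98 to −1.88 for APOL6 and −0.55 to −0.45 for APOL2. The 5 differences between pairs of members whose groups were apart kept their sign in each of 8 alternatives run for them. That of APOL3 and APOL6, whose groups overlapped, ranged from −0.18 to 0.036 without single replicates. APOL4 had log2 fold changes of −0.095 with no filter and −0.070 by DESeq2, which gave it no adjusted p.

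Under the replicate block, log2 fold changes were −4.42 for APOL1, −0.49 for APOL2, −1.99 for APOL3 and −1.92 for APOL6, and no call of a member changed. Same-numbered samples had correlations of their deviations of −0.0942, 0.0501 and 0.118, so the numbers were not taken as a pairing.

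The test against a 2-fold change called 377 genes lower and 127 higher, and a minimum of 1 CPM in 3 samples left 523 lower and 223 higher past a 2-fold change, against 835 and 647. In the lists, glmTreat gave 1 lower and 0 higher for APOL partners, 1 and 0 for the BCL2 family, 0 and 0 for neighbours, 5 and 0 for IFN regulators, 1 and 0 for other apolipoproteins and 0 higher for APOLD1. The CPM filter gave 2 lower neighbours and 1 higher BCL2 gene. Without single replicates, higher neighbours ranged from 2 to 5 and higher BCL2 genes from 1 to 2. Library size only and upper quartile scaling gave 5267 and 5171 genes higher against 4309 and 4413 lower, beside 4548 higher and 4971 lower with TMM. Low counts of APOL1 and APOL3 in IRF1shRNA replicate 2 limit their precision.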
